A study of Rattus norvegicus with 8 samples.

Results

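The CYP2C family of rat liver was described from 17 Affymetrix probe sets, the ones of 8740 non-control probe sets whose annotation holds a gene symbol starting with Cyp2c and a digit. Of these, 14 were matched to 1 gene each and cover 7 genes, namely Cyp2c6v1, Cyp2c7, Cyp2c11, Cyp2c12, Cyp2c13, Cyp2c22 and Cyp2c23, of 4736 genes named by the array's probe sets with 1 symbol. The other 3 were matched to both Cyp2c7 and Cyp2c7l1 and are given apart, and Cyp2c24 had no probe set matched to it and was not analysed here. The names of 10 probe sets end in _s_at and those of 5 in _f_at, the maker's marks for probes shared between similar transcripts, so a signal may hold RNA of more than the gene it is named for.

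CYP2C enzymes are cytochromes P450 of the endoplasmic reticulum. They hydroxylate steroids, retinoids, fatty acids such as arachidonic acid, and many drugs, with electrons delivered by the reductase encoded by Por. In rat liver several of them differ by sex under the pattern of growth hormone release: pulsed hormone maintains Cyp2c11 and Cyp2c13 in males, and steadier hormone maintains Cyp2c12 and a higher level of Cyp2c7 in females.

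The 4 D3T rats were gavaged with 0.3 mmol per kg of D3T (3H-1,2-dithiole-3-thione, an inducer of detoxification enzymes) in saturated sucrose on days 1, 3 and 5. The 4 vehicle rats were given 0.2 ml of saturated sucrose alone, with the days labelled for 3 of them and none for vehicle replicate 2. All 8 were male Fischer 344 rats on AIN 76A chow with an age label of 6 that carries no unit, and RNA of each snap-frozen liver was read on its own Rat Genome U34 array (version A). The study asks which liver transcripts differ after D3T.

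Pairs of arrays correlated at 0.896 to 0.962, and their 2% trimmed means lay between 500.8 and 501. Of 10 hepatocyte markers 9 passed the filter on low signals, with 0 higher and 1 lower after D3T (Fgb), and their summed signal was 246153 to 337452 in D3T livers and 194863 to 292058 in vehicle livers. The summed signal of 5 of 10 Kupffer cell and macrophage markers that passed the filter was 4133 to 5136 in D3T livers and 5293 to 5972 in vehicle livers, without overlap, with 1 higher (Cd14) and 1 lower (C1qb). Summed signals of 5 of 8 stellate cell markers (1 lower, Col3a1) were 1406 to 1942 in D3T livers and 1794 to 3308 in vehicle livers, and those of 3 of 7 endothelial markers (1 lower, Lyve1) were 371.3 to 592.8 in D3T livers and 538.5 to 718.1 in vehicle livers. For 2 of 5 cholangiocyte markers (0 called) the sums were 210.7 to 295.5 in D3T livers and 190.3 to 288.3 in vehicle livers, and for 3 of 9 leukocyte markers (0 called) 571.7 to 710.1 in D3T livers and 385.0 to 580.8 in vehicle livers. Those of 4 of 5 proliferation markers (1 higher, Top2a) were 773.2 to 1514 in D3T livers and 662.4 to 964.4 in vehicle livers. None of the markers tested lay at the floor (a signal of 20.26, to which lower ones were raised) on every array. The actin 3'/5' log2 ratio, a measure of RNA quality, averaged 0.40 in D3T livers and 0.62 in vehicle livers (exact permutation p = 0.0571, two-sided), and D3T replicate 3 alone of the D3T arrays lay within the vehicle range. The part of the cell markers and of the actin ratio in the CYP2C results was not tested.

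All 17 CYP2C probe sets passed the filter on low signals, and 0 of them passed the threshold of an adjusted p under 0.05 (limma, Benjamini-Hochberg adjustment over 5244 tested probe sets). The background share of calls was 10.7% of all tested probe sets, made up of 4.2% higher and 6.48% lower after D3T, and it was 20.1% among the 680 tested probe sets at least as bright as the 14 CYP2C ones with a mean signal above 1000. At an unadjusted p under 0.05 there were 4 CYP2C probe sets of 17, against 29.3% of all tested probe sets. The log2 fold changes, here D3T minus vehicle, were positive for 9 and negative for 8, with a median of 0.00 beside 0.02 for all tested probe sets. With quantile normalization or median centring 7 were positive and 10 negative.

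Small estimates were about as common in the family as among bright probe sets of the array. Of the 17 probe sets, 15 had an estimate within 1.5-fold of no difference (88.2%, against 75.6% of all tested probe sets and 85.1% of the 680 bright ones). The 14 bright CYP2C probe sets had log2 fold changes from -0.379 to 0.384. Their spread between rats of a group was a median residual SD of 0.243 (log2), beside 0.188 for the 680 bright probe sets. The probe sets beyond 1.5-fold were both those of Cyp2c12.

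**Figure D1:**
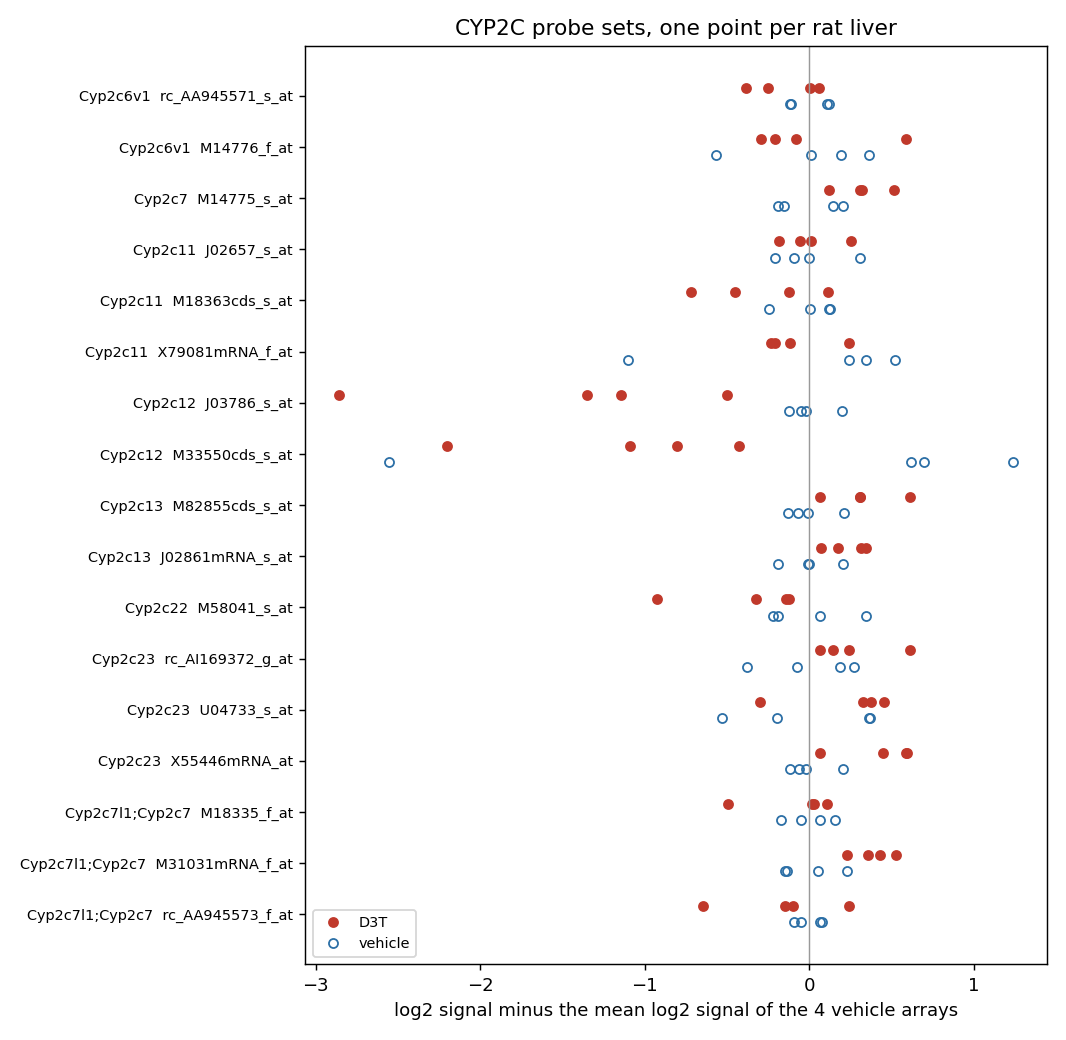
Log2 signal of each CYP2C probe set (rows) in each rat, relative to the mean of the 4 vehicle arrays. Filled points are the 4 D3T arrays and open points the 4 vehicle arrays, and J03786_s_at of Cyp2c12 is the row in which all D3T points lie below all vehicle points.

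**Figure D2:**
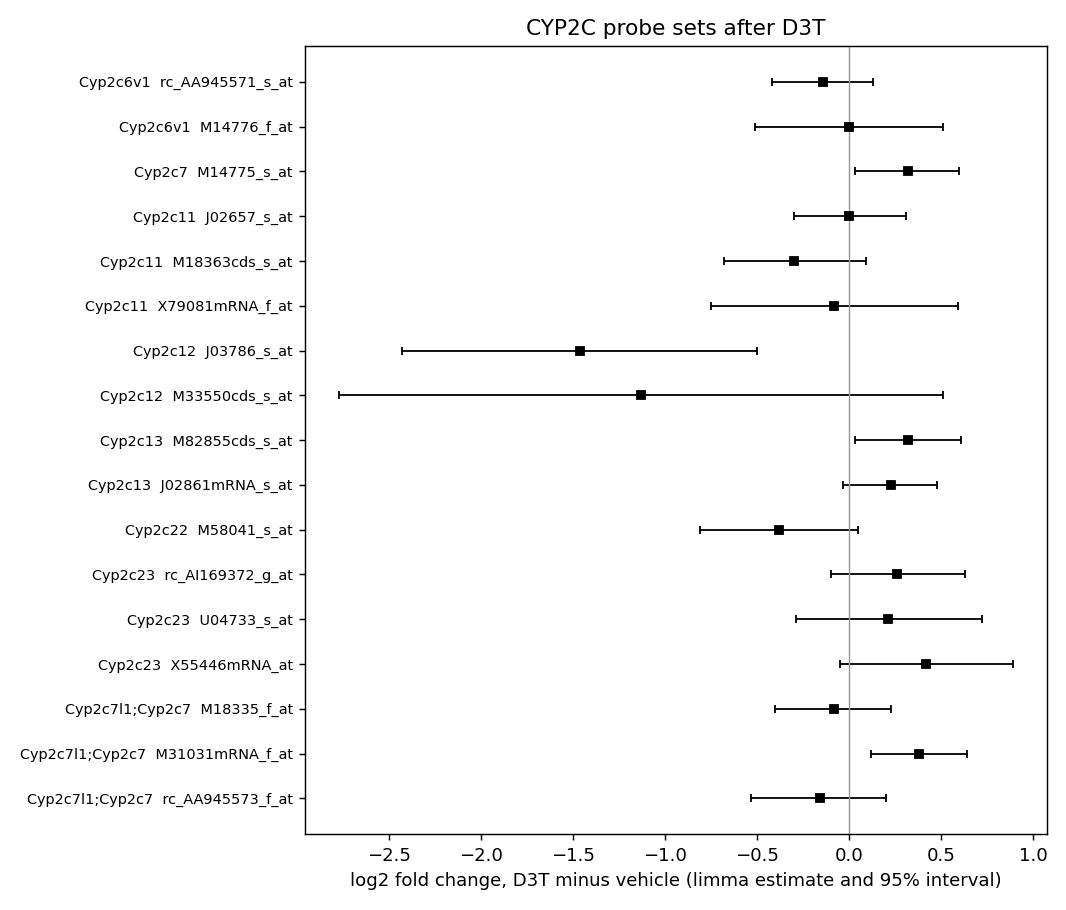
Log2 fold change (D3T minus vehicle) of the 17 CYP2C probe sets with 95% intervals from limma. The estimates of 15 lie within 1.5-fold of no difference, and the 2 Cyp2c12 probe sets lie lowest, at -1.46 and -1.13.

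The proximal promoters of the sex-dependent members are shown because the growth hormone pattern and liver-enriched factors act there, and because these genes head the results that follow. RefSeq promoter sequences of the rat assembly GRCr8 were found for 6 of the 8 genes with a probe set, not including Cyp2c6v1 and Cyp2c7l1. The lines give the 250 bases before the annotated start site, 5' to 3', on the gene's own strand. They lie at chr1:247966144-247966393 (plus strand) for Cyp2c7, chr1:246174966-246175215 (plus) for Cyp2c11, chr1:248677035-248677284 (minus) for Cyp2c12 and chr1:248787189-248787438 (minus) for Cyp2c13. Capitals mark matches, on either strand, to TATAAA (the TATA box), ACAAAG (the core of sites for the factor HNF4, encoded by Hnf4a) and ATTGAT (the site of the factor encoded by Onecut1).
Cyp2c7: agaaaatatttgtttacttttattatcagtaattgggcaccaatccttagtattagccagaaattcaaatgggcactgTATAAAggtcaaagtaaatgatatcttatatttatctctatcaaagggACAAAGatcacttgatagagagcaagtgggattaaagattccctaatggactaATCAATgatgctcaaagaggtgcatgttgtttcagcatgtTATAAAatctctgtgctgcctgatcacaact
Cyp2c11: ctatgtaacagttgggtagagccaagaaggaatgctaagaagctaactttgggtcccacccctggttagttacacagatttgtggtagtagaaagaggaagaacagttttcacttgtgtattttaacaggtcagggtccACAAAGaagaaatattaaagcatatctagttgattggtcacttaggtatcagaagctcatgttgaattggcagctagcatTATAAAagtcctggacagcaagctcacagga
Cyp2c12: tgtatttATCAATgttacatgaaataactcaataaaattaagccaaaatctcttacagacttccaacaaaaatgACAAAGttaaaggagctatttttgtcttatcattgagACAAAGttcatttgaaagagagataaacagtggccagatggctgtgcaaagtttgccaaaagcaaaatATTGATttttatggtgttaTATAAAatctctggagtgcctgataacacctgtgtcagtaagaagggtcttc
Cyp2c13: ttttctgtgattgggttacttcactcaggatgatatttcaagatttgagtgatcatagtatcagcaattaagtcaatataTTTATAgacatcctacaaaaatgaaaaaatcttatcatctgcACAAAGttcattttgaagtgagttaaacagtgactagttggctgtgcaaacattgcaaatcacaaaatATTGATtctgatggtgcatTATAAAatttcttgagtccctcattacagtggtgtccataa

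The 4 promoters share some of these letters and differ in others. Counted from the start site, TATAAA begins at -31 in Cyp2c7 and Cyp2c11, at -41 in Cyp2c13 and at -52 in Cyp2c12, with further copies at -172 in Cyp2c7 and, on the minus strand, at -170 in Cyp2c13, and 14.2% of all 33469 promoters of 300 bases in the table hold it on either strand. ACAAAG begins at -124 in Cyp2c7, at -111 in Cyp2c11, at -139 in Cyp2c12 and at -128 in Cyp2c13, with a further copy at -176 in Cyp2c12, and 18.8% of all promoters hold it. ATTGAT is in Cyp2c7, Cyp2c12 and Cyp2c13 and has no match in Cyp2c11, and 8.06% of all promoters hold it. The longer HNF4 element CAAAGTNCA, which overlaps ACAAAG, was matched in Cyp2c12 and Cyp2c13 and in 1.24% of all promoters.

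Of the other motifs searched on both strands, TTGCNNAA (sites of C/EBP factors) was matched in Cyp2c12 and Cyp2c22 and in 10.6% of all promoters. AGGTCA (the core that nuclear receptors bind) was matched in Cyp2c7, Cyp2c11 and Cyp2c22 and in 16.2% of all promoters. No match in the 6 CYP2C promoters was found for TTCNNNGAA (STAT5; 8.87% of all promoters), TGACNNNGC (the core of the antioxidant response element; 12.1%) or the HNF1 element (0.0329%). In global alignments of the 300 bases, Cyp2c12 and Cyp2c13 were the most alike of the 15 pairs, at 65.5% identity, and Cyp2c7 and Cyp2c23 the least alike, at 42.4%. These matches describe letters only.

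Cyp2c11, which encodes the main male-specific testosterone hydroxylase of rat liver, had nearly equal means in both groups by its brightest probe set. J02657_s_at read 17203, 15732, 21363 and 18016 in D3T livers, and 17865, 22121, 16805 and 15477 in vehicle livers. The 2 groups cover almost the same range, and neither holds a rat far from the others. The mean signal was 18079 ± 2385 in D3T livers and 18067 ± 2874 in vehicle livers (SD, n = 4 each), and the log2 fold change was 0.00 ± 0.14 (SE; 95% interval -0.30 to 0.31; limma adjusted p = 0.984). With quantile normalization it was -0.26 (adjusted p = 0.138).

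The remaining Cyp2c11 probe sets gave estimates below 0 with wider intervals. M18363cds_s_at read 8629, 12755, 10855 and 7184 in D3T livers, and 9947, 11827, 12823 and 12902 in vehicle livers. D3T replicates 1 and 4 lie under every vehicle rat, and D3T replicates 2 and 3 lie among them, for a log2 fold change of -0.30 ± 0.17 (interval -0.68 to 0.09; limma adjusted p = 0.280). X79081mRNA_f_at read 1848 to 2566 in D3T livers and 1012 to 3113 in vehicle livers, where vehicle replicate 1 at 1012 lay under all other rats, and its log2 fold change was -0.08 ± 0.30.

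Cyp2c13, which encodes another male-specific steroid hydroxylase, had higher means in D3T livers by both probe sets, and neither passed the threshold. M82855cds_s_at read 19811, 24409.8, 16740.2 and 19792 in D3T livers, and 15208, 18462, 14599 and 15927 in vehicle livers. The groups overlap through D3T replicate 3 and vehicle replicate 2. The log2 fold change was 0.32 ± 0.13 (SE; interval 0.03 to 0.61; limma adjusted p = 0.131). J02861mRNA_s_at read 8851, 10493, 10694 and 9491 in D3T livers, and 8399.8, 9699, 8365 and 7392 in vehicle livers. Its groups overlap through vehicle replicate 2, and its log2 fold change was 0.23 ± 0.11 (interval -0.03 to 0.48; adjusted p = 0.219). With quantile normalization the values were 0.11 and 0.13.

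Cyp2c12, which encodes the female-specific hydroxylase of steroid sulfates, was dim in these male livers and had the lowest estimates of the family. J03786_s_at read 80.85, 126.1, 24.65 and 69.97 in D3T livers, and 163.9, 172.7, 204.7 and 176.0 in vehicle livers. All 4 D3T rats lie under all 4 vehicle rats, the only CYP2C probe set of 17 whose groups did not overlap, where 19.2% of all tested probe sets did not overlap (7.89% with D3T higher throughout and 11.3% with D3T lower). The mean was 75.4 ± 41.7 in D3T livers and 179.3 ± 17.6 in vehicle livers (SD, n = 4 each). The log2 fold change was -1.46 ± 0.44 (SE; interval -2.43 to -0.50), 2.76-fold lower, and its adjusted p of 0.0564 in limma missed the threshold. In RNA of whole liver, fewer cells expressing a gene and less RNA per cell cannot be told apart.

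The side of the threshold on which J03786_s_at fell depended on the setting. It passed without D3T replicate 2 (-1.78, limma adjusted p = 0.0279), with the floor at the 40th percentile of signals (-1.12, adjusted p = 0.0175), with log2 of signal plus 16 (-1.23, adjusted p = 0.0448) and with array weights (-1.45, adjusted p = 0.0344), and over all settings the adjusted p ran from 0.0175 to 0.171. D3T replicate 3, at 24.65, lay close to the floor of 20.26 applied to every signal, and without it the log2 fold change was -1.0 (adjusted p = 0.0523).

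M33550cds_s_at, the other Cyp2c12 probe set, read 106.3, 81.73, 31.04 and 67.17 in D3T livers, and 231.8, 24.35, 337.0 and 219.9 in vehicle livers. Vehicle replicate 2 lies under every D3T rat, and the remaining 3 vehicle rats lie over every D3T rat. In J03786_s_at the same rat read 172.7, among the other vehicle rats. The log2 fold change of M33550cds_s_at was -1.13 ± 0.74 (interval -2.77 to 0.51; limma adjusted p = 0.330), and it was -1.98 without vehicle replicate 2, which passed (adjusted p = 0.0186).

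**Figure D3:**
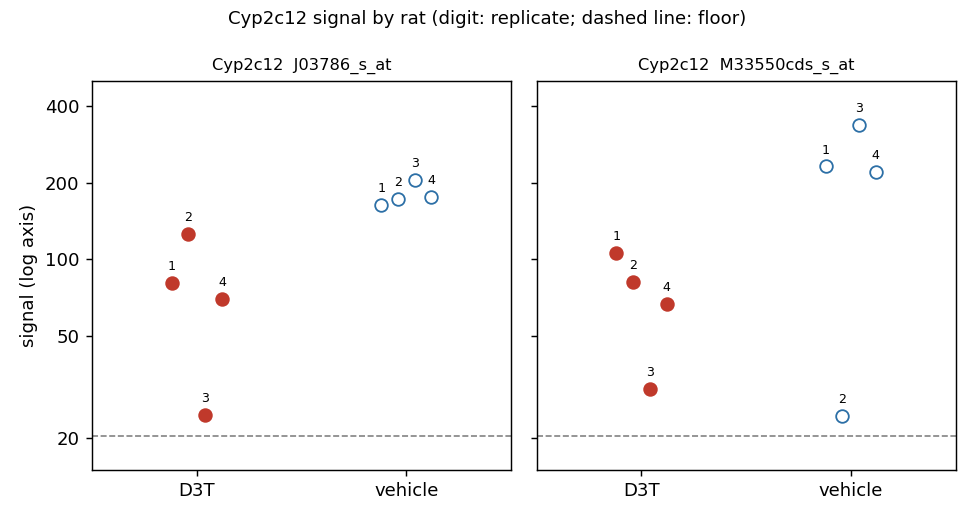
Signal of the Cyp2c12 probe sets in each rat on a log axis, filled points for D3T and open points for vehicle, with the replicate number beside each point and a dashed line at the floor of 20.26. In J03786_s_at the D3T rats lie at 24.65 to 126.1 and the vehicle rats at 163.9 to 204.7, and in M33550cds_s_at vehicle replicate 2 lies at 24.35, under all D3T rats.

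Cyp2c7 encodes a hydroxylase of retinoic acid and steroids and is more strongly expressed in females. M14775_s_at read 16155, 18640.4, 14157 and 16252 in D3T livers, and 11406, 14407, 11714 and 15012 in vehicle livers. The groups overlap, since D3T replicate 3 lies under vehicle replicates 2 and 4. The log2 fold change was 0.32 ± 0.13 (SE; interval 0.03 to 0.60; limma adjusted p = 0.134), and 0.17 with quantile normalization.

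The 3 probe sets shared by Cyp2c7 and Cyp2c7l1 differed in sign among themselves. M31031mRNA_f_at read 13489, 16569, 15492 and 14740.0 in D3T livers, and 11951, 13500.0, 10403 and 10483 in vehicle livers. Only D3T replicate 1 lies under any vehicle rat, and by a small margin under vehicle replicate 2. Its log2 fold change was 0.38 ± 0.12 (SE; interval 0.12 to 0.64; limma adjusted p = 0.0608). It passed without vehicle replicate 2 (0.46, adjusted p = 0.0267), among the 30% brightest probe sets (adjusted p = 0.0413) and with array weights (adjusted p = 0.0433), and over all settings the adjusted p ran from 0.0267 to 0.310. M18335_f_at read 10158 to 15443 in D3T livers and 12686 to 15978 in vehicle livers (log2 fold change -0.08 ± 0.14), and rc_AA945573_f_at read 6055 to 11211 in D3T livers and 8878 to 10018 in vehicle livers (-0.16 ± 0.16).

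Cyp2c6v1, whose enzyme is made in both sexes and rises with phenobarbital, showed no call by either probe set. The brighter one, rc_AA945571_s_at, read 8154, 9735, 10108 and 7436 in D3T livers, and 10547, 8994, 8957 and 10468 in vehicle livers. D3T replicates 1 and 4 lie under all vehicle rats and the others lie among them. Its log2 fold change was -0.14 ± 0.13 (SE; interval -0.42 to 0.13; limma adjusted p = 0.467). M14776_f_at read 4765 to 8756 in D3T livers and 3939 to 7519.6 in vehicle livers, with a log2 fold change of 0.00 ± 0.23 (interval -0.51 to 0.51).

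Cyp2c22 had 1 probe set, M58041_s_at, which read 4379, 3817, 2512 and 4332 in D3T livers, and 4179.9, 6069, 5004 and 4095 in vehicle livers. D3T replicate 3 is the lowest of the 8 rats and vehicle replicates 2 and 3 are the highest. The log2 fold change was -0.38 ± 0.19 (SE; interval -0.81 to 0.05; limma adjusted p = 0.220), and it was -0.20 without D3T replicate 3, -0.88 with the actin ratio as a covariate, and called in neither.

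Cyp2c23, which encodes an epoxygenase of arachidonic acid best known from the kidney, had estimates above 0 by all 3 of its probe sets. The brightest, rc_AI169372_g_at, read 9933, 8780.1, 9262 and 12818 in D3T livers, and 7969.9, 6453, 10114 and 9554 in vehicle livers. The groups overlap widely, with the highest rat in the D3T group and the lowest in the vehicle group. The log2 fold change was 0.26 ± 0.17 (SE; interval -0.10 to 0.63; limma adjusted p = 0.309), and -0.06 with the actin ratio as a covariate.

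U04733_s_at of Cyp2c23 read 7406, 8074, 4786 and 7663 in D3T livers, and 5150.1, 4081, 7623 and 7575 in vehicle livers. D3T replicate 3 stands apart from the other D3T rats, and the log2 fold change over all rats was 0.21 ± 0.23 (-0.19 with the actin ratio as a covariate). X55446mRNA_at, a dim probe set, read 193.0, 193.6, 134.7 and 175.0 in D3T livers, and 122.9, 147.8, 118.4 and 126.9 in vehicle livers. The groups overlap only through D3T replicate 3 and vehicle replicate 2, and the log2 fold change was 0.42 ± 0.21 (interval -0.05 to 0.89; limma adjusted p = 0.213).

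Whether members responded differently from each other was tested on log2 ratios within each liver, a measure free of the scaling of the arrays. Each of the 7 genes was represented by its brightest probe set of a single gene, which gave 21 pairs, and 0 of 21 passed after Benjamini-Hochberg adjustment over the pairs (exact two-sided permutation test over 70 assignments). The smallest p this design allows is 0.0286, it was reached by 6 pairs, and their adjusted p was 0.1. At least 13 pairs would have to reach it for any to have an adjusted p under 0.05, so the count of 0 says little about the members.

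Cyp2c7 over Cyp2c13 had the smallest difference between the groups of the 21 pairs. Their log2 ratio averaged -0.30 ± 0.06 in D3T livers and -0.29 ± 0.14 in vehicle livers (SD, n = 4 each), a difference of -0.01 with an interval from -0.30 to 0.17, obtained by inverting the exact test (p = 0.943). Cyp2c11 over Cyp2c13, the male-specific pair, averaged -0.16 ± 0.40 in D3T livers and 0.16 ± 0.14 in vehicle livers. That difference of -0.32 has an interval from -0.89 to 0.39 (exact p = 0.200).

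The 6 pairs at the smallest p set Cyp2c12 or Cyp2c22 against another member. Cyp2c13 over Cyp2c22 averaged 2.45 ± 0.30 in D3T livers and 1.74 ± 0.20 in vehicle livers, a difference of 0.70 (interval 0.22 to 1.19), and Cyp2c7 over Cyp2c22 differed by 0.69 (interval 0.01 to 1.26). Groups cannot overlap in a pair at the smallest p, and in these pairs with Cyp2c22 the D3T livers had the higher ratios. The intervals are not adjusted for the number of pairs. Cyp2c12 over Cyp2c13 averaged -8.27 ± 0.79 in D3T livers and -6.48 ± 0.24 in vehicle livers, a difference of -1.79 (interval -3.25 to -0.86). The other 3 were Cyp2c7 over Cyp2c12 at 1.78, Cyp2c6v1 over Cyp2c12 at 1.32 and Cyp2c12 over Cyp2c23 at -1.73. A ratio of signals from different probe sets is not a ratio of RNA amounts, and only its difference between the groups is read here.

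**Figure D4:**
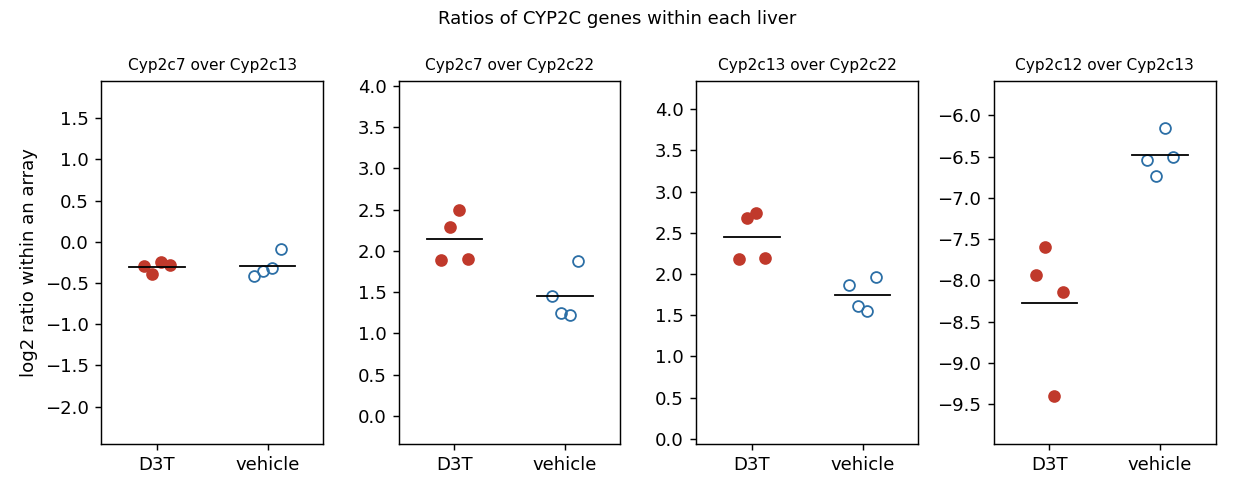
Log2 ratios of pairs of CYP2C genes within each liver, filled points for D3T, open points for vehicle and a line at each group's mean. Panels span the same number of log2 units, so the near-equal means of Cyp2c7 over Cyp2c13 (-0.30 and -0.29) can be set beside the shift of Cyp2c12 over Cyp2c13 (-8.27 and -6.48).

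Profiles over the 8 rats most like those of the brightest members were found by the root mean square difference of log2 signals, each profile centred on its own mean. For Cyp2c11 these were Sh3gl1 (0.0889), Stard3 (0.0898) and Cps1 (0.0939), the last encoding the first enzyme of the urea cycle. The median over all tested probe sets with 1 gene symbol outside the family was 0.388. For Cyp2c13 the most alike genes were Sord (0.081), the sorbitol dehydrogenase gene, Cyb5r3 (0.094), which encodes a reductase of cytochrome b5, and Ninj1 (0.0969). For Cyp2c7 they were Lrp2 (0.0611), Ndufaf3 (0.0768) and Sbk1 (0.0875), and the median was 0.419 for both Cyp2c13 and Cyp2c7. None of these 9 genes passed the threshold (limma adjusted p from 0.0714 to 0.990).

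Genes that act with CYP2C enzymes or on their promoters were read from lists, 1 probe set per gene, beside 3150 tested genes, among which 117 rose and 184 fell and the median log2 fold change was 0.03. Among P450 partners and heme enzymes 1 of 11 rose, 0 fell and the median was -0.06. The gene that rose was Cyb5a, cytochrome b5, an electron donor that can assist P450 reactions, at 8043 ± 1120.4 in D3T livers and 5073 ± 837.6 in vehicle livers (log2 fold change 0.67 ± 0.14, limma adjusted p = 0.0174). It lost the call without vehicle replicate 1 (0.63, adjusted p = 0.0558), when all probe sets were tested (0.0599) and when the intensity trend was left out (0.0532). Cyb5a also lost it with the replicate number as a block (limma adjusted p = 0.0608). Por did not pass (-0.33, adjusted p = 0.183).

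Among transcription factors and receptors 3 of 14 rose and 1 fell, with a median of -0.08. Rxra, a partner of the receptors that induce P450 genes, averaged 578.6 ± 126.1 in D3T livers and 121.7 ± 76 in vehicle livers (log2 fold change 2.47 ± 0.43, limma adjusted p = 0.00725). When all probe sets were tested, Rxra lost the call (adjusted p = 0.0527 in limma). Rxrb rose (0.63, adjusted p = 0.0343), as did Hnf4a, at 1075 ± 113.6 in D3T livers and 762.6 ± 104.1 in vehicle livers (0.50, adjusted p = 0.0477). Cebpb, a liver-enriched factor of the acute phase response, fell (-0.59, adjusted p = 0.0186). Without the intensity trend Cebpb lost the call (limma adjusted p = 0.0518). Hnf4a passed in 0 of 8 fits that left out an array, Rxrb in 1 of 8 (adjusted p up to 0.116 for Hnf4a and 0.0863 for Rxrb) and Cebpb in 6 of 8 (adjusted p up to 0.0575).

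In growth hormone signalling 3 of 9 genes fell and 0 rose, with a median of -0.26. Ghr, the hormone's receptor, averaged 5799.6 ± 1345 in D3T livers and 10217 ± 1191 in vehicle livers (log2 fold change -0.84 ± 0.16, 1.78-fold lower, limma adjusted p = 0.0104). Igfals, which encodes a carrier subunit of circulating IGF1, averaged 1214 ± 239.3 in D3T livers and 2247 ± 445.0 in vehicle livers (1.85-fold lower, adjusted p = 0.0136). When all probe sets were tested, Igfals lost the call (adjusted p = 0.058 in limma). Igf1, the hormone's main secreted product in liver, averaged 4738 ± 374.1 in D3T livers and 7198 ± 1194 in vehicle livers (1.51-fold lower, adjusted p = 0.0185), and it lost the call without D3T replicate 4 (adjusted p = 0.0524), when all probe sets were tested (0.0507) and when the intensity trend was left out (0.0555). In each of these 3 genes all D3T rats lay under all vehicle rats. The same held in 11.3% of all tested probe sets, and the 3 genes were named because they passed. Stat5b, the transducer of hormone pulses, did not pass (0.09, adjusted p = 0.857).

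Other sex-biased liver genes under growth hormone did not move as one. Of 6 male-biased genes 2 fell and 0 rose, with a median of -0.38. Car3, a carbonic anhydrase gene, averaged 1178 ± 342.3 in D3T livers and 4694 ± 858.9 in vehicle livers (4.05-fold lower, limma adjusted p = 0.000253). Cyp3a2, another steroid hydroxylase gene, averaged 1841 ± 505.4 in D3T livers and 5931 ± 955.5 in vehicle livers (3.28-fold lower, adjusted p = 0.000553). Cyp2a2 averaged 5516 ± 556.9 in D3T livers and 5645 ± 439.6 in vehicle livers and did not pass (adjusted p = 0.850).

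Of 5 female-biased genes 2 fell and 1 rose, with a median of -0.69. Sult2a1, a steroid sulfotransferase gene, averaged 1399 ± 442.4 in D3T livers and 3551 ± 904.9 in vehicle livers (2.59-fold lower, limma adjusted p = 0.012). When all probe sets were tested, Sult2a1 lost the call (adjusted p = 0.0676 in limma). Hao2, a peroxisomal hydroxy acid oxidase gene, was 1.68-fold lower (adjusted p = 0.0196) and passed in 4 of 8 fits that left out an array. It also lost the call when all probe sets were tested (limma adjusted p = 0.0714) and when the intensity trend was left out (0.0548). Cyp2a1, a testosterone hydroxylase gene, rose to 7201 ± 930.7 in D3T livers, against 4589 ± 598.7 in vehicle livers (1.57-fold, adjusted p = 0.0132). Cyp2a1 lost the call with the replicate number as a block (limma adjusted p = 0.0537).

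Among 8 genes of arachidonic acid and retinoid metabolism 2 rose and 1 fell, with a median of 0.24. Aldh1a1, which makes retinoic acid from retinal, rose 4.37-fold (limma adjusted p = 0.000289), and Ephx1, a microsomal epoxide hydrolase gene, rose 3.19-fold (adjusted p = 8.31e-06). Cyp4a1, a fatty acid hydroxylase gene, was 1.68-fold lower (adjusted p = 0.0274), passed in 4 of 8 fits that left out an array, and had the opposite sign in 1 of its 2 other probe sets. Cyp4a1 also lost the call when all probe sets were tested (limma adjusted p = 0.0881) and when the intensity trend was left out (0.0644). Of 12 other CYP2 genes 2 rose and 0 fell, with a median of 0.06. These were Cyp2a1 and Cyp2b2, the phenobarbital-inducible P450 gene, at 2859.6 ± 319.0 in D3T livers and 1449 ± 163.5 in vehicle livers (1.97-fold, adjusted p = 0.00148).

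With the actin ratio as a covariate, of the 17 list genes named here as changed only Car3, Aldh1a1 and Ephx1 passed (limma adjusted p up to 0.041), and the adjusted p of the others ran from 0.0667 for Cyp3a2 to 0.561 for Hao2. The log2 fold changes behind the lost calls did not shrink alike. They were -1.60 for Cyp3a2, -1.69 for Sult2a1, 2.73 for Rxra, -0.87 for Igfals and 0.73 for Cyb5a, near or beyond the values without the covariate. They were smaller for Ghr (-0.36), Hao2 (-0.25), Cyp2a1 (0.31) and Hnf4a (0.31).

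**Figure D5:**
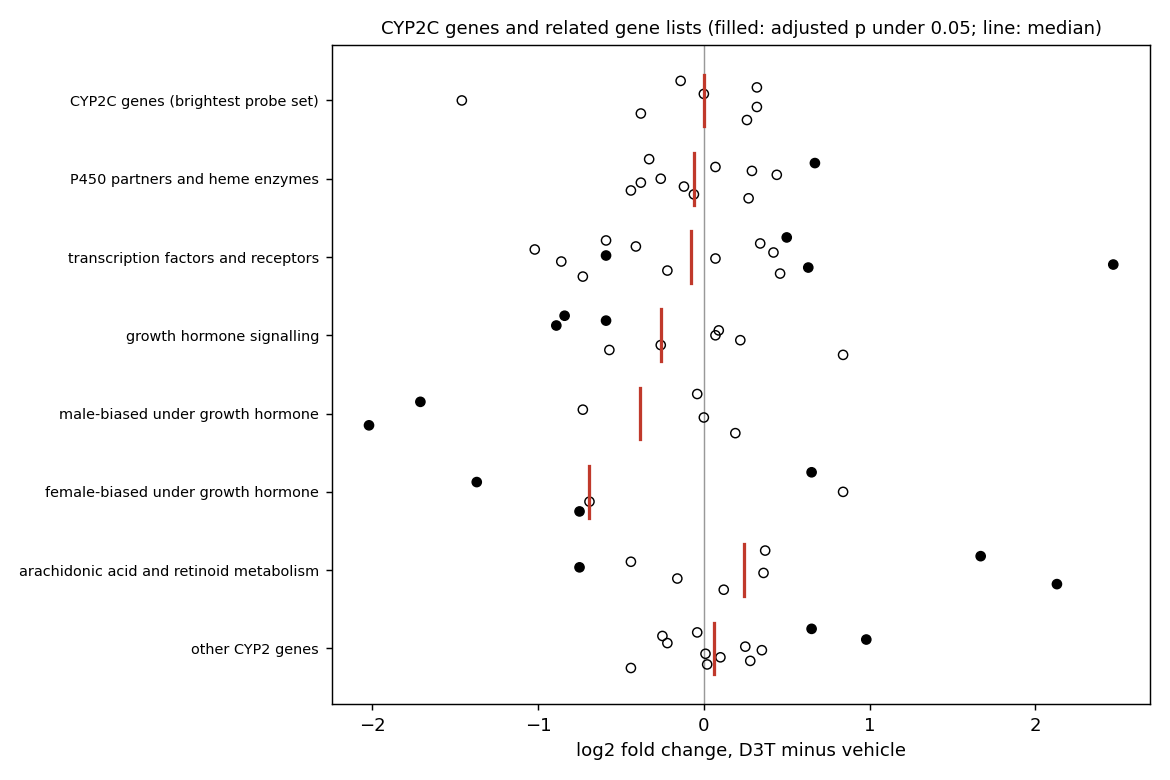
Log2 fold change (D3T minus vehicle) of the CYP2C genes and of the related gene lists, 1 point per gene. Filled points passed the threshold and the vertical line is each list's median, so the CYP2C row holds no filled point while 3 of 9 growth hormone signalling genes are filled on the lower side.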

How the data were processed

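Signals were read for 8740 non-control probe sets (8799 with controls) on 8 arrays, 4 D3T and 4 vehicle, grouped by the sample titles. The deposited values are linear intensity signals that the authors made with MAS5, per the submitters' processing notes. Neither a MAS5 version nor a scaling target nor detection calls were found (not given in the sources used here). Intensities carry no counts, so the number of arrays limits the precision, and the rats of a group are its replicates.

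The 2% trimmed mean of every array was set to 500, signals under the 20th percentile (20.26) were set to that floor, and log2 was taken. The 60% of probe sets with the highest mean log2 signal (5244) were fitted with limma 3.58.1 in R 4.3.3 (lmFit, eBayes with trend), with Benjamini-Hochberg adjustment over all of them and a threshold of 0.05. A fold change compares geometric means of floored signals. Intervals are at 95%. The script was tested on simulated data.

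Gene names came from the platform annotation (7006 probe sets with 1 symbol, 308 with several, 1426 with none). The 8 CYP2C identifiers all matched the RefSeq table of GRCr8, where the family's genes lie on chromosome 1. A gene was represented by its brightest probe set. Every CYP2C probe set was described, the 3 most alike profiles were named for the 3 brightest genes, and each list gave up to 4 called members or its brightest. The members, lists, tests and alternatives were chosen with earlier results of these data known.

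The alternatives concerned the scaling (deposited values as they are, quantile normalization, median centring), low signals (log2 of signal plus 16, the floor raised to the 40th percentile), the filter (none, or the 30% brightest), the variance (no trend, robust eBayes, array weights), a block for the replicate number, the actin ratio as a covariate, and each array left out. Promoters were aligned with Biopython 1.88. Permutation tests used Python 3.11.15 and SciPy 1.17.1.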

Additional observations from a re-analysis of the deposited data

Results flagged for a closer look

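Of 34 groups of 4 arrays (17 CYP2C probe sets, D3T and vehicle each), 3 held an array whose gap to its nearest neighbour was a larger share of the group's range than Dixon's 95% critical value, which chance exceeds in about 1 group of 20. Gaps and ranges were taken on log2 signals, while the signals printed here are linear. In M33550cds_s_at of Cyp2c12, vehicle replicate 2 read 24.35 beside 219.9 to 337.0 in the other vehicle rats (gap over range 0.837). In U04733_s_at of Cyp2c23, D3T replicate 3 read 4786 beside 7406 to 8074 in the other D3T rats (0.835). In M18335_f_at, matched to Cyp2c7 and Cyp2c7l1, D3T replicate 2 read 10158 beside 14505 to 15443 in the other D3T rats (0.85).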

How the results depend on the processing

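The count of single-gene CYP2C probe sets higher after D3T was 0 under every alternative run. The count lower after D3T was 0, and 1 with log2 of signal plus 16, with the floor at the 40th percentile and with array weights, and it ran from 0 to 1 when an array was left out (1 without D3T replicate 2 or without vehicle replicate 2). Of 21 pairs of genes, 0 passed in any setting, a count that says nothing about stability, since at least 13 would have to reach the smallest p of the main test together. Over all probe sets the count of 560 became 309 with no filter, 333 with no intensity trend and 35 with the actin ratio as a covariate. That count rose to 824 with array weights. When an array was left out, it ran from 240 (without vehicle replicate 3) to 695 (without vehicle replicate 2). Over the 17 CYP2C probe sets, 324 of 337 alternative values kept their side of the threshold without a change of sign larger than the residual SD, 8 newly passed (4 of J03786_s_at, 1 of M33550cds_s_at, 3 of M31031mRNA_f_at) and 5 changed sign by more than that SD, none of them called (J02657_s_at with quantile normalization, and rc_AA945571_s_at, M18363cds_s_at, rc_AI169372_g_at and U04733_s_at with the actin ratio). Over the 17 other named genes, 279 of 339 kept their call and 60 lost it. The cause was not tested.

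Replicate numbers are shared between the groups, but they do not pair the rats: same-numbered arrays had correlated deviations of 0.0633, -0.0861, 0.012 and -0.198, and 1 of 4 numbers matched itself best. With the replicate number as a block, 290 probe sets passed, the CYP2C counts were 0 in either direction, J03786_s_at was -1.46 (limma adjusted p = 0.096), and no pair could pass, since the smallest p of the sign-flip test is 0.125. Signals near the floor limit both Cyp2c12 probe sets.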

Other observations

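D3T replicate 2 had the highest signal of its group in 10 of the 17 CYP2C probe sets, and D3T replicate 3 the lowest in 8 of 17. Among vehicle rats, vehicle replicate 2 was the highest in 8 of 17 and vehicle replicate 1 the highest in 1. Probe sets of the family share sequence, so these counts are not independent of each other.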
